A study of Schistocerca gregaria with 20 samples.

Results

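The pleuropodia are a pair of glandular appendages that insect embryos carry for a time on the first abdominal segment. They arise as limb buds, like the legs, and turn into an epithelium specialised for transport and secretion. In grasshoppers and locusts they have long been discussed as a source of enzymes that digest the serosal cuticle, the chitin and protein sheet around the embryo, before hatching. The data described here cover the interval in which the organ of the desert locust *Schistocerca gregaria* passes from a bud of immature cells to a differentiating gland.

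The comparison uses 6 of the 20 mRNA libraries of the study, chosen by their labels alone. The pleuropodia of days 7, 8 and 8-9 of embryonic development (n = 3 libraries, called days 7-9) were set against the pleuropodia of days 4, 5 and 6 (n = 3 libraries, days 4-6). The other 14 libraries are pleuropodia of days 10 to 13 and hind legs of the same 10 ages, and the 6 hind leg libraries of days 4 to 8-9 serve as the reference appendage below. The embryos came from eggs of a long-kept colony of gregarious locusts, incubated at 30 °C, and the labels name no treatment and no genotype. Each library was made from the pooled appendages of many embryos, and each age is represented by 1 library per tissue. The 3 libraries of a group are therefore 3 successive ages that stand in as replicates, and the spread within a group mixes development with technical noise.

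Values are RPKM, the reads on a transcript set against its length and the depth of the library, divided by a factor that corrects for library composition, called scaled RPKM. RPKM is already per length, so levels can be compared between transcripts. The factors were 1.09, 0.89 and 0.98 for days 7, 8 and 8-9, against 1.23, 1.35 and 1.13 for days 4, 5 and 6. Depth, recovered from the RPKM, was 34.4, 35.9 and 15.2 megareads at days 7, 8 and 8-9, against 34.5, 34.5 and 36.0 megareads at days 4, 5 and 6. The library of day 8-9 was the shallowest and the only one of the 6 read at another sequencing centre, where fragments were read from both ends (75 bases, cropped to 50). The reference transcriptome was assembled in part from the same day 8-9 RNA. The sequencing centre cannot be told apart from the age of that library. Differences are means of log2(scaled RPKM + 0.5) at days 7-9 minus days 4-6, each with its standard error (SE) and a p-value from limma, a linear model that shares the variance between transcripts, adjusted over all transcripts tested.

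Known regional genes were used to check the tissue labels. For dac the study prints an ID that differs in 1 letter from that of the transcript used here, which has the same number. The abdominal Hox gene abd-A was at 1.09, 0.404 and 2.14 scaled RPKM in pleuropodia of days 7, 8 and 8-9 and at 14, 6.76 and 1.95 in those of days 4, 5 and 6, while no hind leg library of these ages exceeded 0.222. The limb gene dac was at 67.2, 68.5 and 85.1 in legs of days 7, 8 and 8-9 and at 24.9, 37.4 and 59 in legs of days 4, 5 and 6, and at most 2.45 in any of the 6 pleuropodia libraries. No transcript of the files is annotated as a marker of haemocytes, muscle or neurons, so the share of those cells was not tested. In pooled tissue, fewer cells of a type and less RNA per cell cannot be told apart.

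Between the 2 groups, 2039 of 10564 transcripts tested (19.3%) rose at days 7-9 and 1146 (10.8%) fell at a limma adjusted p under 0.05. The increases were larger than the decreases. The median log2 difference was 1.95 among transcripts that rose and -1.22 among those that fell, 382 transcripts rose by more than 4 on the log2 scale, and 18 fell by more than 4. A fold above 2 together with a mean above 10 scaled RPKM in the higher group was met by 1108 of the transcripts that rose and 431 of those that fell. These counts depend on the composition scaling. Without it the median of all transcripts tested was -0.311 in place of 0.001, and the calls became 1580 that rose and 2190 that fell, so that rising transcripts made up 41.9% of all calls in place of 64.0%. The counts also depend on single ages. They were 971 and 220 without the day 5 library, 1288 and 500 without day 4, 2645 and 1770 without day 6, 1654 and 683 without day 7, 1122 and 254 without day 8, and 1460 and 481 without day 8-9. All directions below are relative to the composition-scaled median.

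A group of transcripts passed from near absence to levels over 10 scaled RPKM. In pleuropodia 126 transcripts were under 1 scaled RPKM in every library of days 4-6 and over 10 in every library of days 7-9, and 20 of them belong to the lists described below. In legs no transcript met the same rule. For 90 of the 126 every leg library of these ages was under 1 scaled RPKM, and for 122 every leg library was under 10. The reverse rule, over 10 in every library of days 4-6 and under 1 in every library of days 7-9, was met in pleuropodia by SgreTa0001221 and SgreTa0004585, named here after their values were seen, and in legs by no transcript. SgreTa0001221 was at 0.262, 0.309 and 0 scaled RPKM at days 7, 8 and 8-9, against 32.6, 28.3 and 663 at days 4, 5 and 6, and SgreTa0004585 at 0.632, 0.17 and 0.734, against 19.1, 49.3 and 47.5. These thresholds were also set after the data had been seen and carry no test.

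The study listed 77 transcripts that were higher in secreting pleuropodia than in legs at days 10 to 12 and the most abundant of those. The list was thus chosen on other libraries of the same series, and against legs, so that a low share in legs partly restates the choice. Together they held 7.74%, 14.5% and 10.7% of the reads at days 7, 8 and 8-9, against 0.558%, 0.707% and 1.45% at days 4, 5 and 6. In legs the same transcripts held 0.629%, 0.792% and 0.723% at days 7, 8 and 8-9, against 0.567%, 0.547% and 0.602% at days 4, 5 and 6. The 2 groups of pleuropodia did not overlap, and the share went on to 24.9% at day 10 and 40.7% at day 13. Of the 100 most abundant transcripts of a library, 22, 33 and 28 came from this list at days 7, 8 and 8-9, against 0 in each library of days 4-6. With 3 libraries against 3 an exact permutation test cannot go below 0.10, so no test was made.

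**Figure D1:**
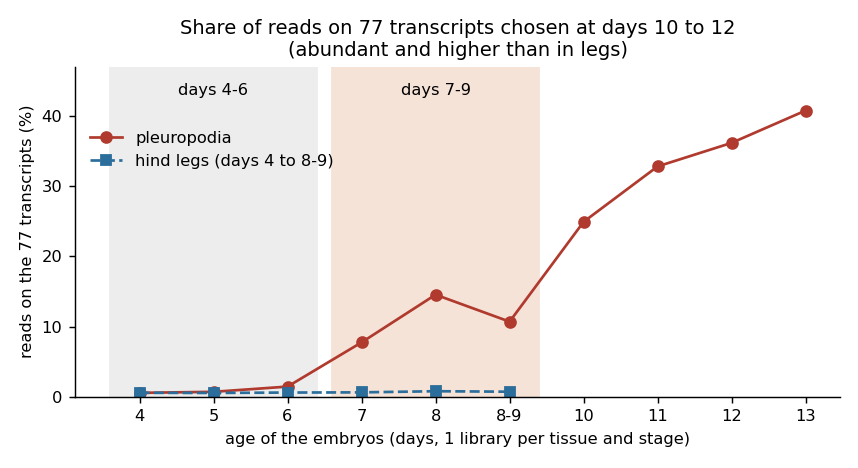
Percentage of the reads on 77 transcripts, chosen by the study as higher than in legs and abundant at days 10 to 12 (vertical axis), in each pleuropodia library from day 4 to day 13 (red circles) and each hind leg library from day 4 to day 8-9 (blue squares), 1 library per point. The pleuropodia share stays at or below 1.45% up to day 6 and lies between 7.74% and 14.5% at days 7 to 8-9, while no leg library exceeds 0.792%, on a list selected against legs of later ages.

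The 77 and further transcripts that the study names, most of them as higher in pleuropodia than in legs at days 10 to 12, were grouped into 16 lists by role, 108 transcripts in all. Of these, 24 have no name or no characterized product. Other members of the same families that the study names without a difference from legs (further chitinases, imaginal disc growth factors, lysozymes and Halloween genes) were not analysed here. Of the 108 listed transcripts 102 were tested, 89 rose, 2 fell (Ubx and spo) and 11 did not pass. Over the tested members the median log2 difference was 6.04, beside 0.001 for all transcripts tested. Of all transcripts tested, 19.3% rose and 10.8% fell, and in 27.8% the groups did not overlap, with days 7-9 higher. These shares are the background for the counts of each list below. The study picked most of them for being higher in older pleuropodia than in legs, so their direction is not independent evidence. For 24 of the 102, every day 4-6 library was under 1 scaled RPKM, so that they passed the filter on low values through days 7-9 alone. Of the 89 that rose, 59 (66.3%) were highest at day 8, 25 (28.1%) at day 8-9 and 5 (5.62%) at day 7. Over all 2039 transcripts that rose these shares were 51.7%, 37.2% and 11.1%.

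**Figure D2:**
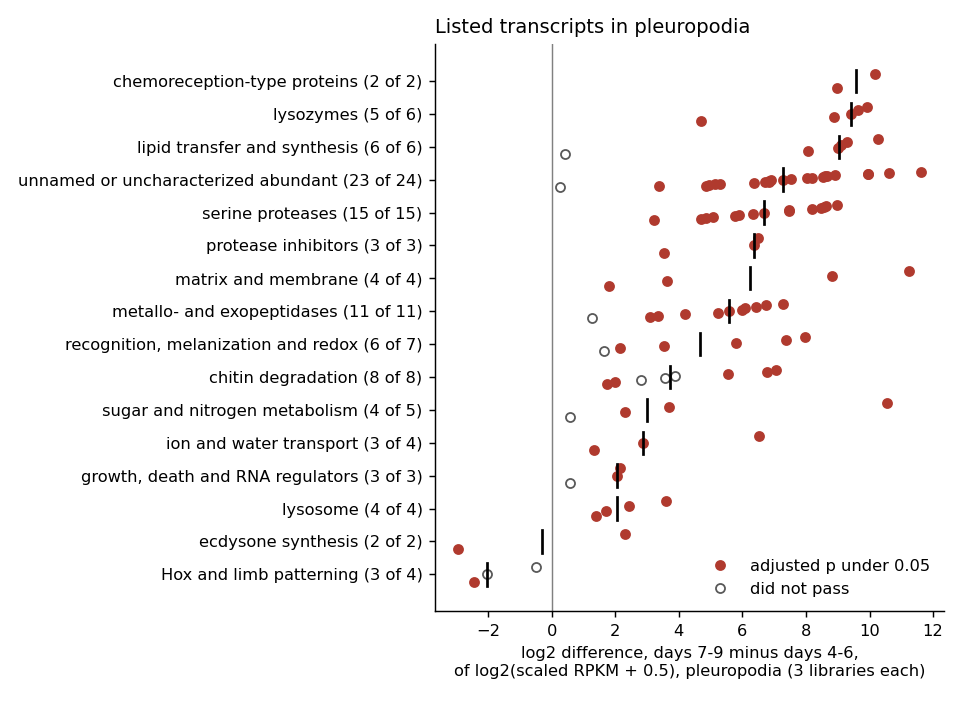
Log2 difference of each tested transcript of the 16 lists (days 7-9 minus days 4-6, 3 libraries each, on log2(scaled RPKM + 0.5)), with a black bar at each list's median and, in brackets, how many members were tested of how many. Filled points passed an adjusted p under 0.05 and open points did not. Most lists lie to the right of 0, from the chemoreception-type proteins (median 9.57) to the lysosome list (median 2.06), and the Hox and limb list (median -2.03) and the ecdysone list (median -0.31) lie left of it.

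Lysozymes cut the peptidoglycan of bacterial walls, and 5 of the 6 listed rose while the remaining one was not tested. In 3 of the 5 tested, every day 4-6 library was under 1 scaled RPKM, so that they entered the test through days 7-9 alone. Sg-LyzC-1, a C-type lysozyme, was at 77.6, 706 and 2632 scaled RPKM at days 7, 8 and 8-9, against 0.287, 0 and 0.224 at days 4, 5 and 6 (log2 difference 9.64, SE 1.17, limma adjusted p = 0.0025). It climbed at each step within days 7-9 and spread 33.9-fold within days 7-9. Sg-LyzC-2, the second C-type member, was at 519.7, 968 and 2974, against 1.12, 0.68 and 1.98 (log2 difference 9.41, SE 0.64, limma adjusted p = 2.54e-04). Of the I-type lysozymes, Sg-LyzI-1 was at 439, 4180.1 and 259, against 0, 0.106 and 1.28 (log2 difference 9.91, SE 1.07, limma adjusted p = 0.0015). Its day 8 library stood far above its neighbours on both sides. Sg-LyzI-3 was at 266, 765 and 253, against 0.0451, 0.151 and 0.891 (log2 difference 8.88, SE 0.54, limma adjusted p = 1.72e-04), also highest at day 8. The groups did not overlap for any of the 4, which held for 27.8% of all transcripts tested with days 7-9 above days 4-6. Sg-Lyz-like-1 rose as well, at 10.7, 13 and 42.1 against 0, 0 and 0.995 (log2 difference 4.69, limma adjusted p = 0.0041).

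Sg-LyzI-4 followed another course. It remained at 1.36, 1.2 and 0.576 scaled RPKM in pleuropodia of days 7, 8 and 8-9 and at 0.268, 0.671 and 0.627 in those of days 4, 5 and 6, too low to enter the pleuropodia test. In legs it was at 16.3, 34.1 and 18.6 at days 7, 8 and 8-9, against 0.723, 0.934 and 6.1 at days 4, 5 and 6, and its change in pleuropodia minus that in legs was -2.72 (SE 0.8, limma adjusted p = 0.038) over the 12 libraries. It was the lysozyme with the opposite sign in that test, where the other 5 were positive.

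Chitin-degrading enzymes work in sequence: chitinases cut the polymer and beta-N-acetylglucosaminidases split the short chains into sugar units. Of the 8 listed transcripts 5 rose, none fell and 3 did not pass, with a median log2 difference of 3.72. In 2 of the 8, every day 4-6 library was under 1 scaled RPKM. Sg-nag2, a beta-N-acetylglucosaminidase, was the most abundant at 749, 1446 and 800.4 scaled RPKM at days 7, 8 and 8-9, against 0.419, 2.03 and 161 at days 4, 5 and 6 (log2 difference 7.05, SE 1.8, limma adjusted p = 0.029). Day 6 already lay far above days 4 and 5. Sg-idgf-1 encodes an imaginal disc growth factor, a chitinase-like protein known from *Drosophila* as a growth factor without chitinase activity. It was at 45.1, 101 and 55.8, against 0, 0.0263 and 0.24 (log2 difference 6.78, SE 0.35, limma adjusted p = 1.15e-04). Sg-fdl, the Fused lobes hexosaminidase that trims glycans in *Drosophila*, was at 56.6, 35.1 and 59.2, against 0.117, 0.688 and 1.1 (log2 difference 5.55, SE 0.4, limma adjusted p = 3.16e-04). Both made their largest step between days 6 and 7, with no overlap between the groups. The call for Sg-nag2 was lost without the library of day 4, 5, 7, 8 or 8-9 (log2 differences 5.56 to 7.22, limma adjusted p = 0.07 to 0.11).

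The hexosaminidase Sg-hex rose less, to 9.68, 22.6 and 33.1 against 4.37, 3.73 and 5.56 (log2 difference 2.0, SE 0.44, limma adjusted p = 0.019). Sg-cht5-2, the second Chitinase 5 transcript, passed the test at a low level, 2.51, 2.58 and 1.93 against 0.13, 0.258 and 0.774 (log2 difference 1.74, limma adjusted p = 0.015). In legs it was at 0.38, 16.8 and 6.51 at days 7, 8 and 8-9, against 0.111, 0.0114 and 0.0662 at days 4, 5 and 6. Its change in pleuropodia minus that in legs did not pass (-1.34, SE 1.17, limma adjusted p = 0.46). The call for Sg-hex was lost without the library of day 4, 5, 8 or 8-9 (log2 differences 1.62 to 1.98, limma adjusted p = 0.051 to 0.079), and that for Sg-cht5-2 without the library of day 5 or 8 (log2 differences 1.66 to 1.67, limma adjusted p = 0.065 to 0.069). Chitinase 5 is the main chitinase of the moulting fluid in insects studied so far. Its first transcript, Sg-cht5-1, was at 76, 57.8 and 90.3 scaled RPKM at days 7, 8 and 8-9, against 0.0128, 0 and 504 at days 4, 5 and 6 (log2 difference 3.87, SE 2.6, limma adjusted p = 0.29). The day 6 library alone was above all 3 of days 7-9, so the groups overlapped and the difference did not pass. Without day 6 it was 7.19 with a limma adjusted p of 2.3e-05. At days 10 to 13 it was at 62.1, 1021, 11167 and 27191, and in legs it was at 0.27, 5.95 and 2.27 at days 7, 8 and 8-9.

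The day 6 library also changed the call of 2 further chitin enzymes. Sg-nag1, the other beta-N-acetylglucosaminidase, was at 106, 162 and 127 scaled RPKM at days 7, 8 and 8-9, against 2.04, 5.98 and 81.4 at days 4, 5 and 6 (log2 difference 3.56, SE 1.18, limma adjusted p = 0.061). Sg-cht2, encoding Chitinase 2, was at 95.7, 123 and 77.5, against 3.63, 9.33 and 64.1 (log2 difference 2.82, SE 0.93, limma adjusted p = 0.061). In both the 3 later libraries lay above the 3 earlier ones, and days 4 to 6 spread widely. Without day 6 the differences were 5.01 (limma adjusted p = 0.00044) for Sg-nag1 and 3.94 (limma adjusted p = 0.00089) for Sg-cht2.

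**Figure D3:**
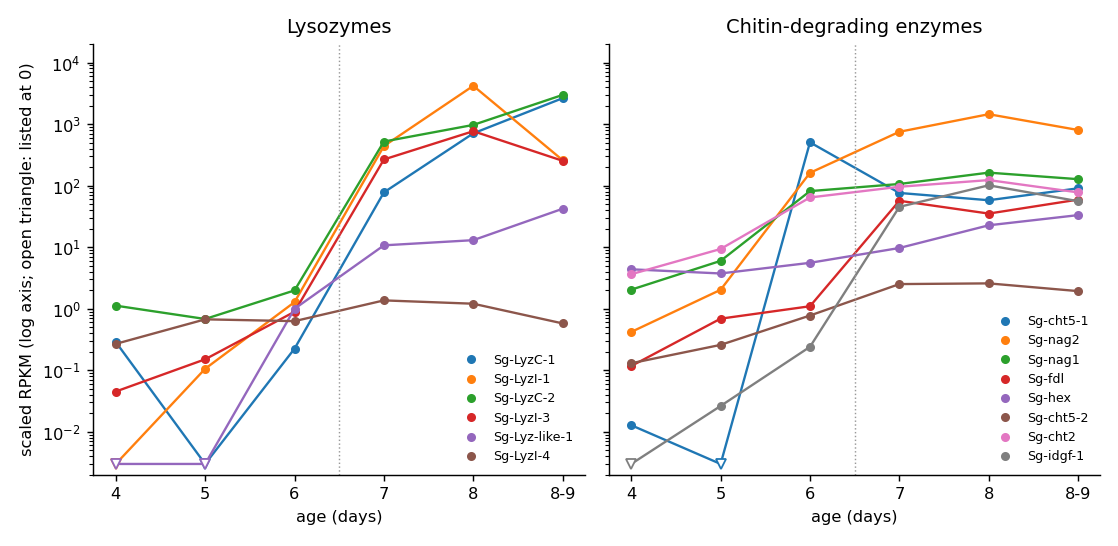
Scaled RPKM on a log axis in the 6 pleuropodia libraries (horizontal axis: age in days, dotted line between the groups), 1 point per library, for the 6 lysozymes (left) and the 8 members of the chitin list (right). Open triangles are libraries in which the transcript is listed at 0. Lysozymes other than Sg-LyzI-4 step up between days 6 and 7, whereas Sg-cht5-1, Sg-nag1, Sg-nag2 and Sg-cht2 are already raised at day 6.

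Serine proteases cut proteins and often activate one another. All 15 listed were tested and all 15 rose, by 3.22 to 8.98 on the log2 scale, with a median of 6.69. The median was 7.47 with the member listed at 0 in all day 4-6 libraries set at the log2 of its fold bound. That bound is on a scale without the added 0.5. In 7 of the 15, every day 4-6 library was under 1 scaled RPKM. Most are named after Easter and Snake, proteases that act in a cascade of zymogens in the *Drosophila* egg. The Easter-like SgreTa0003661 was at 655, 1085 and 668 at days 7, 8 and 8-9, against 0.949, 0.343 and 2.51 at days 4, 5 and 6 (log2 difference 8.98, SE 0.47, limma adjusted p = 1.27e-04). The Easter-like SgreTa0007426 was at 214, 422 and 325, against 0.0313, 0.057 and 1.37 (log2 difference 8.56, SE 0.53, limma adjusted p = 1.89e-04). Both varied by less than 2-fold over the 3 later ages. SgreTa0003188, a further Easter-like transcript, was at 135, 276 and 342, against 0.0199, 0.00907 and 0.611 (log2 difference 8.46, SE 0.45, limma adjusted p = 1.30e-04). SgreTa0001636, given only as a serine protease, was at 489, 872 and 273, against 0.00628, 0.721 and 2.46 (log2 difference 8.64, SE 0.7, limma adjusted p = 4.84e-04), and reached 8235 at day 10.

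Of the remaining serine proteases, 3, chosen after their values were seen, had hardly any reads at days 4-6. SgreTb0039024, Easter-like, had 0 reads in all 3 libraries of days 4-6 and 5.61, 13.4 and 55.2 scaled RPKM at days 7, 8 and 8-9. It was at least 819-fold higher at days 7-9, taking 3 reads over the group as the floor. SgreTa0010219 had 1 read at days 4-6 and SgreTb0039879 had 3. Their ratios of days 7-9 to days 4-6 were 3630 with a 95% counting interval of 652 to 143000 and 2830 with an interval of 968 to 13700. Such intervals cover counting error only. In legs of days 7-9 no serine protease of the list exceeded 14.7 scaled RPKM.

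Inhibitors of serine proteases rose beside the proteases. Serpins trap a protease in a dead-end complex, and the 27-like and 88E-like names refer to *Drosophila* serpins that hold back immune protease cascades. The 27-like serpin SgreTa0009747 was at 99, 769 and 184 scaled RPKM at days 7, 8 and 8-9, against 1.04, 3.16 and 2.91 at days 4, 5 and 6 (log2 difference 6.5, SE 0.76, limma adjusted p = 0.0022). The 88E-like serpin SgreTa0006539 was at 1162, 943 and 1646, against 2.26, 9.57 and 115 (log2 difference 6.37, SE 1.25, limma adjusted p = 0.013). An uncharacterized inhibitor, SgreTa0002155, was at 236, 313 and 270, against 9.15, 9.07 and 138 (log2 difference 3.54, SE 1.01, limma adjusted p = 0.041). SgreTa0006539 and SgreTa0002155 were well above their day 5 level at day 6 already. The call for SgreTa0006539 was lost without the library of day 5 or 8-9 (log2 differences 6.1 to 6.15, limma adjusted p = 0.053 to 0.06). That for SgreTa0002155 was lost without the library of day 4, 5, 7, 8 or 8-9 (log2 differences 2.89 to 3.64, limma adjusted p = 0.089 to 0.13), as well as without the filter and with robust limma.

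Metallopeptidases and exopeptidases break proteins and peptides down from within or from their ends. Of 11 listed transcripts 10 rose and 1 did not pass, with a median log2 difference of 5.57, and 4 of the 11 were under 1 scaled RPKM in every day 4-6 library. SgreTa0017657, named as a serine carboxypeptidase, was at 41.9, 142 and 255 at days 7, 8 and 8-9, against 0, 0.0428 and 1.02 at days 4, 5 and 6 (log2 difference 7.28, SE 0.73, limma adjusted p = 0.0012). It climbed at every step. The neutral endopeptidases, relatives of neprilysin, included SgreTb0039123 at 90.8, 62.1 and 75.2, against 0, 0.181 and 0.54 (log2 difference 6.74, SE 0.31, limma adjusted p = 9.89e-05), and SgreTa0017692 at 49.6, 32.9 and 98.4, against 0, 0.165 and 0.289 (log2 difference 6.42, SE 0.42, limma adjusted p = 2.21e-04). Both varied by less than 3-fold within days 7-9.

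The Xaa-Pro aminopeptidase SgreTa0017670, which removes a first residue that precedes proline, was at 389, 778 and 895, against 0.0275, 15.1 and 106 (log2 difference 6.08, SE 1.77, limma adjusted p = 0.043). It stepped up at days 5 and 6 before the border between the groups, and its call was lost without the library of day 5, 7, 8 or 8-9 (log2 differences 5.84 to 6.45, limma adjusted p = 0.085 to 0.12), as well as with a pseudocount of 0.1, without the filter and with robust limma. Without the day 4 library its difference was 3.99. An angiotensin-converting enzyme-like transcript, SgreTa0003298, did not pass, at 8.24, 10.5 and 23.4 against 10.5, 4.39 and 2.62 (log2 difference 1.26, SE 0.56, limma adjusted p = 0.13), and its groups overlapped.

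Of 6 listed transcripts for lipid carriers and lipid enzymes 5 rose, with a median log2 difference of 9.04 over the 6. In 1 of the 6, every day 4-6 library was under 1 scaled RPKM. The alpha-tocopherol transfer proteins belong to a family that carries hydrophobic molecules inside cells. SgreTa0003635 was at 788, 1074 and 1322 scaled RPKM at days 7, 8 and 8-9, against 0, 0 and 1.91 at days 4, 5 and 6 (log2 difference 10.26, SE 0.63, limma adjusted p = 1.77e-04). SgreTa0004599 was at 2213, 2976 and 2278, against 0.109, 4.04 and 21.9 (log2 difference 9.28, SE 1.18, limma adjusted p = 0.003). The cytochrome P450 SgreTa0006282 belongs to the CYP4G family, whose *Drosophila* member makes the hydrocarbons of the cuticle surface. It was at 135, 417 and 429, against 0, 0 and 0.105 (log2 difference 9.09, SE 0.46, limma adjusted p = 1.08e-04). The fatty acyl-CoA reductase SgreTa0004278, of a family that turns fatty acids into alcohols, was at 471, 782 and 1052, against 0, 0.00676 and 10.8 (log2 difference 9.0, SE 1.2, limma adjusted p = 0.0036). In these 4 the groups did not overlap (27.8% of all transcripts tested were apart in this direction). The phospholipase B-like SgreTa0014098 was at 252, 242 and 183, against 119.7, 209 and 189, and did not pass (log2 difference 0.41, SE 0.26, limma adjusted p = 0.26).

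All 3 tested transcripts for ion and water transport rose. The aquaporin SgreTa0017577, a water channel, was at 19.8, 219 and 148 scaled RPKM at days 7, 8 and 8-9, against 1.16, 0.393 and 0.078 at days 4, 5 and 6 (log2 difference 6.52, SE 0.91, limma adjusted p = 0.0042). Its day 7 level was 11-fold under that of day 8. The pumps that move protons and sodium across membranes were abundant at days 4-6 too and had smaller log2 differences. The proteolipid subunit of the V-type proton ATPase, SgreTa0014626, was at 937, 1050 and 1818, against 115, 149 and 268 (log2 difference 2.86, SE 0.39, limma adjusted p = 0.0037). The alpha subunit of the sodium/potassium ATPase, SgreTa0001469, was at 212, 314 and 352, against 94.6, 94.7 and 165 (log2 difference 1.33, SE 0.3, limma adjusted p = 0.02). Its call was lost without the library of day 4, 5, 8 or 8-9 (log2 differences 1.18 to 1.26, limma adjusted p = 0.068 to 0.084). A sodium:neurotransmitter symporter, SgreTa0017826, had 0 reads at days 4-6 and was at 0.596, 12.4 and 9.22 at days 7, 8 and 8-9, at least 273-fold higher by the 3 read floor. It was over the filter in too few libraries to be tested and reached 712 at day 10.

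All 4 listed matrix and surface proteins rose, with a median log2 difference of 6.24. SgreTa0008851 carries a Peritrophin-A domain, which binds chitin, and had the second-largest log2 difference of all listed transcripts. It was at 2155, 5833 and 5262 at days 7, 8 and 8-9, against 0.201, 0.0319 and 11.7 at days 4, 5 and 6 (log2 difference 11.25, SE 1.19, limma adjusted p = 0.0014). The collagen SgreTa0003175, of the extracellular matrix, was at 326, 595 and 472, against 0.0178, 0.423 and 1.52 (log2 difference 8.83, SE 0.5, limma adjusted p = 1.60e-04), and reached 5823 at day 10. The tetraspanin SgreTa0007809, a membrane scaffold protein, was at 638, 688 and 511, against 42.9, 36.9 and 70.9 (log2 difference 3.64, SE 0.27, limma adjusted p = 3.76e-04). The leucine-rich repeat protein SgreTa0004471 was at 262, 483 and 269, against 90.1, 99 and 88 (log2 difference 1.81, SE 0.26, limma adjusted p = 0.0047). None of the 4 had overlapping groups (27.8% of all transcripts tested were apart in this direction).

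Lysosomal transcripts were expressed throughout, and all 4 rose, with the smallest median of the lists that rose (2.06) together with the list of growth, death and RNA regulators. SgreTa0001486, a homolog of a membrane protein of late endosomes induced by lipopolysaccharide in mammals, was at 239, 507 and 538 at days 7, 8 and 8-9, against 30.5, 40.1 and 28.9 at days 4, 5 and 6 (log2 difference 3.6, SE 0.34, limma adjusted p = 8.87e-04). Cathepsin L (SgreTb0000759), a cysteine protease of lysosomes, was at 227, 557 and 767, against 83, 78.6 and 95.3 (log2 difference 2.42, SE 0.43, limma adjusted p = 0.0097). The lysosome-associated membrane protein SgreTa0007774 was at 509.7, 714 and 741, against 196, 177 and 219 (log2 difference 1.71, SE 0.2, limma adjusted p = 0.0021). A second cathepsin L-type transcript, SgreTa0000627, was at 118, 157 and 131, against 44.8, 42.6 and 66.9 (log2 difference 1.4, SE 0.22, limma adjusted p = 0.0068). Each was lower in all 3 libraries of days 4-6 than in any of days 7-9, as were 27.8% of all transcripts tested.

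Among transcripts for recognition of microbes, melanin and redox control, 5 of 6 tested rose. In 3 of the 6, every day 4-6 library was under 1 scaled RPKM. The Gram-negative bacteria binding protein SgreTa0009559, a pattern recognition protein of insect immunity, was at 148, 333 and 154 at days 7, 8 and 8-9, against 0.819, 0.662 and 0.582 at days 4, 5 and 6 (log2 difference 7.38, SE 0.34, limma adjusted p = 9.89e-05). Catalase (SgreTa0009095), which breaks down hydrogen peroxide, was at 1598, 2099 and 1571, against 79.7, 112 and 383 (log2 difference 3.53, SE 0.56, limma adjusted p = 0.0067). Protein yellow (SgreTa0015520), linked to melanin in *Drosophila*, was at 16.4, 200.2 and 13.4, against 0.00764, 0.0278 and 0.485 (log2 difference 5.81, SE 1.01, limma adjusted p = 0.009). The peroxidase SgreTa0017700 was at 16.4, 2266 and 110.2, against 0, 0.0367 and 0.496 (log2 difference 7.97, SE 1.63, limma adjusted p = 0.015). For yellow and the peroxidase the day 8 library was far above both neighbours, and the call for the peroxidase was lost without the library of day 4, 5 or 8-9 (log2 differences 7.79 to 8.25, limma adjusted p = 0.051 to 0.064).

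The peroxiredoxin SgreTa0013400 was at 228, 999 and 448, against 229, 119.8 and 123, and did not pass (log2 difference 1.64, SE 0.55, limma adjusted p = 0.064). It passed without the day 7 library (log2 difference 2.16, limma adjusted p = 0.031). Prophenoloxidase (SgreTa0006966), the precursor of the enzyme that starts melanin formation, was below the filter, at 0.686, 34.7 and 9.03 in pleuropodia of days 7, 8 and 8-9 with 2 reads in all at days 4-6, a ratio of 2690 with a 95% counting interval of 745 to 22200. In legs it was at 0.271, 20.6 and 8.37 at days 7, 8 and 8-9. In pleuropodia it reached 584 at day 10.

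In intermediary metabolism, alpha-N-acetylgalactosaminidase (SgreTa0007886), a glycosidase that removes N-acetylgalactosamine from glycans, was at 1817, 4750 and 2626 at days 7, 8 and 8-9, against 0.0151, 0.0137 and 24.7 at days 4, 5 and 6 (log2 difference 10.55, SE 1.5, limma adjusted p = 0.0044). The kinase that makes fructose 2,6-bisphosphate, a signal that speeds glycolysis (SgreTa0000425), was at 1072, 1364 and 990.2, against 37, 62.8 and 282 (log2 difference 3.69, SE 0.7, limma adjusted p = 0.012). Mitochondrial glutamate dehydrogenase (SgreTa0006960) was at 427, 699.9 and 678, against 117, 102 and 139 (log2 difference 2.31, SE 0.24, limma adjusted p = 0.0014). The call for SgreTa0000425 was lost without the library of day 5 or 8 (log2 differences 3.46 to 3.56, limma adjusted p = 0.053 to 0.056). Phosphoenolpyruvate carboxykinase (SgreTa0013377), of gluconeogenesis, did not pass at 70.8, 132 and 101 against 117, 83.8 and 29.7 (log2 difference 0.56, SE 0.52, limma adjusted p = 0.43). In legs it was at 100.5, 23.5 and 33.5 at days 7, 8 and 8-9, against 173, 154 and 166 at days 4, 5 and 6. A myrosinase-like glycosyl hydrolase, SgreTa0001321, was not tested, at 0.306, 13.2 and 2.04 at days 7, 8 and 8-9 and 0.011, 0.0854 and 0.591 at days 4, 5 and 6, and was at 1897 by day 10.

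A pair of transcripts named after chemoreception proteins rose, with no overlap between the groups (27.8% of all transcripts tested were apart in this direction). The OS-D type protein SgreTa0007025, of a family of small carriers of hydrophobic ligands, was at 314, 2020.4 and 796, against 0, 0.0644 and 0.699 (log2 difference 10.16, SE 0.69, limma adjusted p = 2.59e-04). The sensory neuron membrane protein SgreTa0009515, of the CD36 family of lipid receptors, was at 513, 680.4 and 2199, against 0, 0.14 and 18.5 (log2 difference 8.97, SE 1.42, limma adjusted p = 0.0067). Both were under 1.1 scaled RPKM in every leg library of these ages. In pleuropodia SgreTa0007025 was under 1 scaled RPKM in every day 4-6 library, so it entered the test through days 7-9 alone. Of the regulators of growth, death and RNA, Bax inhibitor 1 (SgreTa0016256), which protects cells from apoptosis, was at 646, 1027 and 1098, against 153, 171 and 324 (log2 difference 2.14, SE 0.35, limma adjusted p = 0.0074). Vigilin (SgreTa0007081), an RNA-binding protein, was at 633, 989 and 763, against 118, 145 and 384 (log2 difference 2.06, SE 0.45, limma adjusted p = 0.019). Its call was lost without the library of day 4, 5, 8 or 8-9 (log2 differences 1.73 to 2.08, limma adjusted p = 0.058 to 0.078). Tob (SgreTb0019827), which restrains cell proliferation in mammals, did not pass at 110.4, 233 and 383 against 149, 123 and 159.6 (log2 difference 0.58, SE 0.43, limma adjusted p = 0.33), and it was at 1001 at day 10. Without the day 7 library Tob passed (log2 difference 1.06, limma adjusted p = 0.048), and without day 8-9 its difference was 0.16.

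Of 3 tested genes that pattern the body axis or the limb, 1 fell and 0 rose. Ubx, a Hox gene known for its role in the segments of the hind legs and the pleuropodia, fell to 26.3, 15.5 and 25.7 scaled RPKM at days 7, 8 and 8-9, against 143, 139 and 91.3 at days 4, 5 and 6 (log2 difference -2.45, SE 0.28, limma adjusted p = 0.002). In legs it was at 98.9, 83.7 and 119 at days 7, 8 and 8-9, against 48, 57.7 and 89 at days 4, 5 and 6, and the change in pleuropodia minus that in legs was -3.11 (SE 0.4, limma adjusted p = 4.02e-04). The abd-A values given above correspond to a log2 difference of -2.03 (SE 0.71, limma adjusted p = 0.07), which did not pass. It passed without TMM (-2.31) and without day 6 (-2.72). Most of that decrease lay between days 4 and 6. The distal limb gene Dll was at 9.99, 9.47 and 23.6, against 34.3, 25.2 and 7.06, with its lowest value at day 6 (log2 difference -0.48, SE 0.63, limma adjusted p = 0.59). The gene dac was under the filter in pleuropodia, and in the test over both tissues its change in pleuropodia minus that in legs was -2.6 (SE 0.66, limma adjusted p = 0.02).

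**Figure D4:**
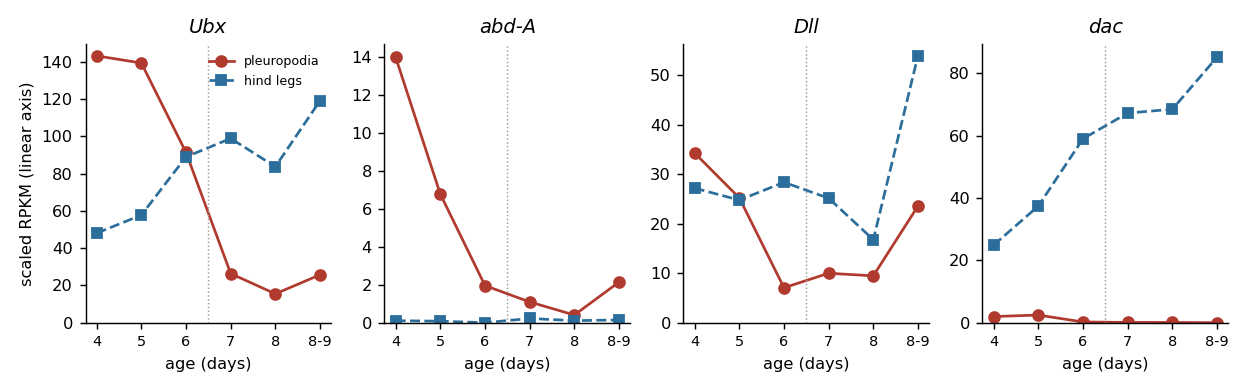
Scaled RPKM (vertical axis, linear, from 0, with its own scale in each panel) of Ubx, abd-A, Dll and dac against age in days, for pleuropodia (red circles) and hind legs (blue squares), 1 library per point. Ubx falls in pleuropodia after day 6 while its leg values run from 48.0 to 119, abd-A declines within days 4-6 and is at most 0.222 in legs, and dac is low in pleuropodia and between 24.9 and 85.1 in legs.

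Ecdysone, the moulting hormone, is made by a chain of enzymes. Several of them are P450 enzymes encoded by Halloween genes. Of the 2 that were identified here, dib was at 48.5, 59.7 and 31.6 scaled RPKM at days 7, 8 and 8-9, against 5.81, 5.76 and 18.7 at days 4, 5 and 6 (log2 difference 2.32, SE 0.49, limma adjusted p = 0.016). The other, spo, fell to 0.921, 4.07 and 1.59, against 11.2, 58.2 and 8.34 (log2 difference -2.94, SE 0.79, limma adjusted p = 0.034). In legs dib was at 14.3, 15.2 and 13.6 at days 7, 8 and 8-9, against 4.2, 5.57 and 6.69 at days 4, 5 and 6. There spo was at 0.091, 4.19 and 0.749, against 3.84, 1.27 and 0.977. The change in pleuropodia minus that in legs did not pass for dib (0.99, SE 0.56, limma adjusted p = 0.25) or for spo (-2.36, SE 1.23, limma adjusted p = 0.21). The call for dib was lost without the library of day 4, 5, 7 or 8 (log2 differences 2.05 to 2.27, limma adjusted p = 0.05 to 0.069), and that for spo without the library of day 4, 5, 7, 8 or 8-9 (log2 differences -3.4 to -2.09, limma adjusted p = 0.059 to 0.097).

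Of 24 abundant transcripts without a protein name or characterized product 23 were tested, 22 rose and 1 did not pass, with a median log2 difference of 7.27, or 7.54 with 1 member at its bound. In 3 of the 23, every day 4-6 library was under 1 scaled RPKM. SgreTa0007042 had the largest log2 difference of all listed transcripts. It was at 1128, 7465 and 2887 at days 7, 8 and 8-9, against 0.0119, 0.0108 and 2.4 at days 4, 5 and 6 (log2 difference 11.63, SE 0.9, limma adjusted p = 4.12e-04). SgreTb0011177 was at 1101, 3149.5 and 626, against 0, 0 and 1.84 (log2 difference 10.6, SE 0.8, limma adjusted p = 3.77e-04). SgreTa0014303 was at 256, 221 and 225, against 97.1, 323 and 239.8, and did not pass (log2 difference 0.25, SE 0.43, limma adjusted p = 0.68). SgreTa0002988, a DUF-containing transcript, was at 0.41, 25.3 and 7.79 at days 7, 8 and 8-9, against 0.32, 0.398 and 0.277 at days 4, 5 and 6, too low for the test, and at 10974 at day 10.

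Outside the lists, SgreTa0002477 and SgreTa0017693 rose most among called transcripts that averaged over 10 scaled RPKM at days 7-9 with groups apart. They were picked from this same fit after their values were seen, so their p-values are not independent support. Both were under 1 scaled RPKM in every day 4-6 library and entered the test through days 7-9 alone. SgreTa0002477 was at 248, 629.6 and 445, against 0, 0 and 0.407 (log2 difference 9.4, SE 0.4, limma adjusted p = 9.89e-05). SgreTa0017693 was at 317, 571 and 386, against 0.268, 0.131 and 0.664 (log2 difference 8.96, SE 0.31, limma adjusted p = 6.52e-05). The files give neither a name. The largest decreases were picked in the same way, by their level at days 4-6. They were those of SgreTa0000374 and SgreTa0004326, also without a name. SgreTa0000374 fell to 2.5, 1.69 and 0.347 scaled RPKM at days 7, 8 and 8-9, against 1326, 3889 and 4840.3 at days 4, 5 and 6 (log2 difference -10.69, SE 0.63, limma adjusted p = 1.61e-04). In pleuropodia it was still climbing at day 6. In legs it was at 3.71, 1.96 and 0.197 at days 7, 8 and 8-9, against 1223, 202 and 4.71 at days 4, 5 and 6, so that the leg level was already low at day 6. SgreTa0004326 fell to 7.8, 1.76 and 2.94, against 172, 483 and 1809 (log2 difference -7.05, SE 0.89, limma adjusted p = 0.0029), and in legs it was at 19, 3.43 and 8.48 at days 7, 8 and 8-9, against 88.6, 109 and 36.6 at days 4, 5 and 6.

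The step between days 6 and 7 was most often the largest. Among the 2039 transcripts that rose, 72.6% had their largest step between successive libraries there, 14.5% between days 5 and 6, and 7.8% between days 7 and 8. Among the 1146 that fell the shares were 57.5%, 19.7% and 6.11%. Among the 89 listed transcripts that rose, 64 had their largest step between days 6 and 7, 14 between days 5 and 6, 9 between days 7 and 8, and 2 between days 4 and 5. The border between the groups lies at that step, which favours it in transcripts called by the comparison.

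**Figure D5:**
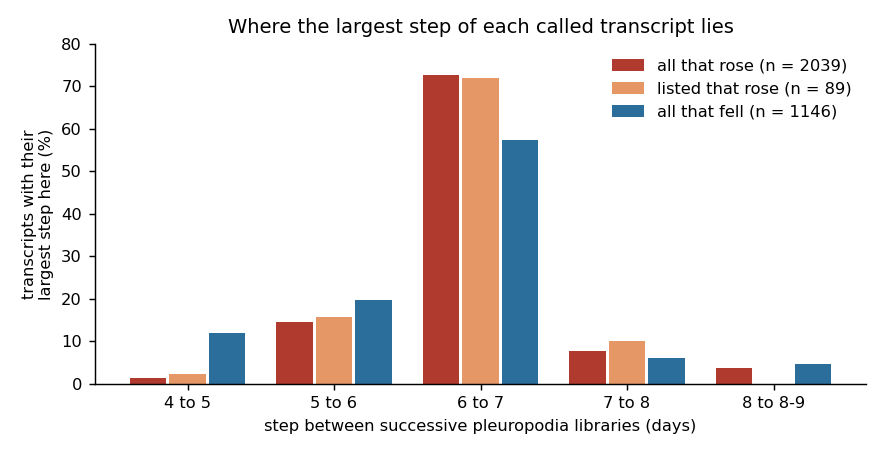
Percentage of called transcripts (vertical axis) whose largest log2 step between successive pleuropodia libraries falls at each of the 5 steps (horizontal axis), for all transcripts that rose (n = 2039), the listed transcripts that rose (n = 89) and all transcripts that fell (n = 1146). The step from day 6 to day 7 is the highest bar in each set, at 72.6%, 71.9% and 57.5%.

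Low levels at day 6 have a counterpart in legs. Of the listed transcripts, 22 averaged over 1000 scaled RPKM in pleuropodia of days 7-9, and 15 of these were under 5 in the day 7 legs. For the 15, the median level at day 6 was 2.4 scaled RPKM in pleuropodia and 1.4 in legs, and in 7 of them the pleuropodia level was less than 3 times the leg level. SgreTa0007042 was at 2.4 in pleuropodia and 2.11 in legs of day 6, and SgreTb0011177 at 1.84 and 1.4. The sensory neuron membrane protein SgreTa0009515 was at 18.5 and 0.586, and alpha-N-acetylgalactosaminidase at 24.7 and 1.49. In legs the medians of the 15 were 0.950 (day 7), 1.22 (day 8) and 0.247 (day 8-9, from the other sequencing centre). In 3 of the 15 the day 6 level was lower in pleuropodia than in legs. Whether such low levels are expression in the sampled appendage or reads carried over from other libraries was not tested.

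The spread within days 7-9 is given as a description. The highest of the 3 libraries was on median 2.55 times the lowest among the 89 listed transcripts that rose and 1.63 times among all 2039. The ratio exceeded 10 in 14 of the 89 (15.7%) and in 56 of the 2039 (2.75%). The largest was that of SgreTa0009217, an unnamed transcript at 28.9, 5866 and 55.3 scaled RPKM at days 7, 8 and 8-9, then at 1397, 21630, 48.5 and 6431 at days 10 to 13. SgreTa0002828 was at 23.7, 4264 and 161, then at 1545, 7666, 32.6 and 2078. The peroxidase SgreTa0017700, given above, was at 80.5, 3539, 162 and 1905 at days 10 to 13. In these transcripts, the first pair named after their values were seen, days 8, 11 and 13 were high and days 7, 8-9 and 12 were low. The call for SgreTa0009217 was lost without the library of day 4, 5 or 8-9 (log2 differences 7.68 to 9.0, limma adjusted p = 0.054 to 0.092), and that for SgreTa0002828 without the library of day 4, 5, 8 or 8-9 (log2 differences 5.51 to 7.87, limma adjusted p = 0.052 to 0.099).

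Fewer transcripts were called in legs over the same ages. At a limma adjusted p under 0.05, 4 of 10005 transcripts (0.04%) rose in legs of days 7-9 over legs of days 4-6 and 0 fell (0%), while 1491 and 977 had an unadjusted p under 0.05. The 4, named after their values were seen, were SgreTa0005981, SgreTa0006876, SgreTa0009552 and SgreTa0016185, with leg means under 20 scaled RPKM. All 4 were under 1 scaled RPKM in every day 4-6 leg library, so they entered the leg test through days 7-9 alone. Of them SgreTa0005981 and SgreTa0016185 had at most 0.0384 in any of the 6 pleuropodia libraries. The leg counts depend on 2 libraries, since 644 rose and 191 fell without day 7, and 321 rose and 75 fell without day 6, while without any 1 of the other 4 leg libraries 0 rose and 0 fell. The difference between the changes was tested itself, over 12 libraries. The change in pleuropodia exceeded that in legs for 1406 of 11227 transcripts (12.5%) and was below it for 725 (6.46%). With the libraries paired by day these counts were 1970 and 1459, and without the composition scaling 1075 and 1060. The negative count was 464 without the pleuropodia of day 5, 1304 without those of day 6, 417 without those of day 8, 425 without the legs of day 4 and 377 without those of day 5. Of the 105 listed transcripts in that test, 77 had a positive difference that passed, and 3, Ubx, dac and Sg-LyzI-4, a negative one. Most of these members had been chosen as higher than in legs at later ages, so the 77 are not independent evidence of a difference from legs.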

How the data were processed

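The authors sequenced mRNA of dissected pleuropodia and hind legs, 1 library per tissue and age, as single reads of 50 bases. For day 8-9 they trimmed paired reads of 75 bases to 50. The labels state that 1 read direction was used, the methods that both mates were joined. Mapping by the authors used Bowtie2 (version 2.2.5) and their own transcriptome. After HTSFilter had taken out transcripts that were low throughout, the authors deposited RPKM for 12988 transcripts, in a matrix labelled as counts. A second deposited table with the authors' own comparison of days 10 to 12 (fold changes and probabilities) was not used. No per-sample column was left out.

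RPKM were divided by TMM factors computed over all 20 libraries (trimming 30% of ratios and 5% of abundances). A transcript entered a test if enough of its libraries reached 1 scaled RPKM. The number needed was the size of the smallest group, 3 with all libraries kept. The log2(scaled RPKM + 0.5) values were fitted with limma-trend (limma 3.58.1, R 4.3.3), with Benjamini-Hochberg adjustment over all transcripts tested and a threshold of 0.05. A log2 difference on this scale understates the change of low transcripts. SE is the standard error from limma. The values are not counts, so no count model was used. Read counts and depths were recovered from the RPKM, which are whole multiples of 1 read (tolerance 0.05 reads, lengths from 200 bases), with Python 3.11.15, and used for shares, floors and intervals only. Simulated data with known changes were run through the same fit. Their noise was independent between libraries, with no change by age within a group, so they cannot test the p-values given here. With 1 library per age, p-values measure the spread between 3 ages, part of which may be technical.

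Alternatives were no TMM, TMM over the fitted libraries, median of ratios, pseudocounts of 0.1 and 1, no filter, a filter at 5 scaled RPKM, limma without trend, robust limma, a stricter threshold, pairing by day, and leaving out each library. Values are given for up to 4 called members per list (2 of the unnamed list) with the largest log2 difference, for members that did not pass or went against their list, for the 2 largest changes each way outside the lists, and for others where the text says so (also Sg-Lyz-like-1 and Sg-cht5-2, outside that rule). Members and lists were chosen with earlier results of these data known. The study pairs most names with transcript IDs. The 9 others (Sg-nag1, Sg-fdl, Sg-hex, Sg-cht5-2, Sg-cht2, Sg-idgf-1, Sg-LyzI-4, dib and spo) were matched by the ratio of mean RPKM at days 10 to 12, for Sg-cht2 and dib with the abundance rank as well. The ID printed for dac has another prefix letter than the transcript used, so that its identity is less certain.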

Additional observations from a re-analysis of the deposited data

Results flagged for a closer look

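The test of the difference between the 2 changes, days 7-9 minus days 4-6 in pleuropodia minus the same in legs (limma, 12 libraries), passed for 1406 transcripts with a positive difference and 725 with a negative one, and for most of the transcripts described above. The values are on the log2 scale, and the limma adjusted p was under 0.05 for each unless stated.

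Among lysozymes the difference was 6.33 for Sg-LyzI-1, 7.46 for Sg-LyzC-1, 8.46 for Sg-LyzC-2, 7.84 for Sg-LyzI-3 and 3.55 for Sg-Lyz-like-1. In the chitin list it was 5.66 for Sg-idgf-1, a growth factor relative, and 5.12 for Sg-fdl, a glycan-trimming enzyme. The other 6 of that list did not pass, among them Sg-nag2 at 5.26 (SE 2.06, limma adjusted p = 0.1) and Sg-cht5-1 at 1.75 (SE 3.0, limma adjusted p = 0.72). For the serine proteases it was 7.16 for SgreTa0003661, 7.22 for SgreTa0001636, 8.44 for SgreTa0007426, 8.37 for SgreTa0003188, 7.29 for SgreTb0039879, 5.92 for SgreTa0010219 and 4.85 for SgreTb0039024. For their inhibitors it was 5.27 for SgreTa0009747, 5.15 for SgreTa0006539 and 3.83 for SgreTa0002155. For the peptidases it was 7.29 for SgreTa0017657, 6.44 for SgreTb0039123 and 6.35 for SgreTa0017692. The difference for SgreTa0017670 did not pass (5.8, SE 1.99, limma adjusted p = 0.067).

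The lipid transcripts gave 9.95 for SgreTa0003635, 7.61 for SgreTa0004599, 8.96 for SgreTa0006282 and 8.53 for SgreTa0004278. In ion and water transport the difference was 7.38 for the aquaporin, 2.24 for the proton ATPase subunit and 1.2 for the sodium/potassium ATPase subunit. In matrix and membrane proteins it was 10.26 for SgreTa0008851, 7.28 for the collagen, 3.17 for the tetraspanin and 1.63 for SgreTa0004471. The lysosomal transcripts gave 2.41 for cathepsin L, 1.87 for SgreTa0007774 and 1.45 for SgreTa0000627. The remaining member, SgreTa0001486, did not pass (1.9, SE 0.68, limma adjusted p = 0.076). In legs it was at 106, 84.9 and 108 at days 7, 8 and 8-9, against 16, 23.4 and 72.5 at days 4, 5 and 6.

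In recognition, melanization and redox the difference was 7.91 for the peroxidase, 6.5 for SgreTa0009559, 4.92 for protein yellow and 2.23 for the peroxiredoxin. Catalase did not pass (1.93, SE 0.7, limma adjusted p = 0.079). Its leg levels were 311, 399 and 317 at days 7, 8 and 8-9, against 82, 95.3 and 182 at days 4, 5 and 6. In metabolism the difference was 9.82 for alpha-N-acetylgalactosaminidase, 3.38 for SgreTa0000425 and 1.86 for glutamate dehydrogenase. It was 9.74 for SgreTa0007025, 8.11 for SgreTa0009515 and 1.53 for Bax inhibitor 1. Vigilin did not pass (1.55, SE 0.52, limma adjusted p = 0.062). Of unnamed transcripts, SgreTa0007042 gave 10.8, SgreTb0011177 gave 10.24, SgreTa0002828 gave 7.03, SgreTa0002477 gave 8.55 and SgreTa0017693 gave 8.74. SgreTa0009217 did not pass (7.26, SE 2.3, limma adjusted p = 0.0501). The difference was negative for Ubx (-3.11) and for SgreTa0004326 (-4.04). That for SgreTa0000374 did not pass (-4.87, SE 2.23, limma adjusted p = 0.16).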

How the results depend on the processing

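Without TMM 2190 transcripts fell in pleuropodia, in place of 1146, and with the stricter threshold 1108 rose and 431 fell. Leaving out 1 library gave 971 to 2645 that rose and 220 to 1770 that fell in pleuropodia, 0 to 644 that rose and 0 to 191 that fell in legs, and 1039 to 2033 positive and 377 to 1304 negative differences between the tissues. Paired by day, 1459 negative differences passed, in place of 725. In legs 1 transcript rose with either other pseudocount, without the filter or without trend, and 0 with the filter at 5 scaled RPKM. These alternatives for legs were added after the data had been seen. Of 61 described transcripts past the threshold, 59 stayed past it under every alternative that kept all libraries, and 47 also without any 1 library. Of those that did not pass, SgreTa0014303 changed sign without TMM (-0.08) and ranged over -0.25 to 0.61 without 1 library, negative without day 4. SgreTa0013377 ranged over -0.01 to 0.96 without 1 library, negative without day 6. For abd-A the difference passed without TMM (-2.31) and without day 6 (-2.72), and Tob (1.06) and the peroxiredoxin (2.16) passed without day 7. The causes were not tested. No paired analysis was possible within pleuropodia because the groups hold different ages. Fits without 1 library leave 2 libraries in a group. In those fits 2 libraries at 1 scaled RPKM were enough to enter the test, so the set tested changed as well. In pleuropodia 103 to 108 listed transcripts were then tested, in place of 102. For transcripts with 0 to 3 reads at days 4-6, depth limits the ratios to bounds or wide counting intervals.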
